A study of Mus musculus with 4 samples.

Results

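The cells described here carried transcripts of Tcf7 and none of Slamf6. Every barcode of the 4 deposited libraries was filtered on at least 500 genes, at least 5000 unique molecular identifiers (UMIs) and at most 10% mitochondrial UMIs. Barcodes also had to hold fewer than 2 UMIs of Cd79a and Ms4a1 together, fewer than 5 of Gzma and Gzmb together, and fewer than 3 of Mki67, Top2a and Ccnb2 together, which set aside B cells, granzyme-rich effectors and dividing cells. Of 11113 barcodes, 7065 passed, and 6953 of these held at least 1 Tcf7 UMI. Slamf6 was at 0 UMIs in 446 of those 6953 cells, called Slamf6-0 cells below. They were chosen by these measured UMI counts, so their Slamf6 and Tcf7 levels are a description only. They were set against the 5315 Tcf7+ cells with at least 3 Slamf6 UMIs, called Slamf6-3+ cells. Between these sets lay 1192 cells with 1 or 2 Slamf6 UMIs.

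The libraries were single-cell RNA libraries of CD44+ CD90.1+ CD8 T cells sorted from tumour-draining lymph nodes of C57BL/6 mice 14 days after tumour implantation. The C6M9 group had a low affinity form of GP33 and the M9 group a high affinity form, and GP33 is a viral peptide recognised by T cells with the P14 receptor. Each group had 2 libraries, which drew on pooled nodes of 35 mice for C6M9 and 10 mice for M9. The protocol calls the libraries of a group biological duplicates but does not say how the mice were divided between them, so if they shared mice, the SDs, SEs and p-values below would measure technical spread. Slamf6-0 cells numbered 251 and 91 in C6M9 replicates 1 and 2, and 87 and 17 in M9 replicates 1 and 2. Slamf6-3+ cells numbered 1103 and 766 in the C6M9 libraries and 2694 and 752 in the M9 libraries.

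Tcf7 encodes TCF1, a transcription factor of naive, memory and progenitor exhausted CD8 T cells that is lost as cells turn into effector or terminally exhausted cells. Slamf6 encodes Ly108, a homophilic receptor of the SLAM family that signals through the adaptor SAP and is widely used as a surface stand-in for TCF1 in exhausted T cells. Il7r, the interleukin 7 receptor alpha chain, and Ly6c2, a GPI-anchored surface protein, are found on naive and memory CD8 T cells. In GRCm38 coordinates, Slamf6 lies on the plus strand of chromosome 1 at 171917515 to 171953170, and Tcf7 on the minus strand of chromosome 11 at 52252371 to 52283014. Both are protein-coding genes.

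Depth bore on how the cells were found, because a shallow cell can miss a transcript that it holds. The matrices held 73379913 and 65721043 UMIs in the C6M9 libraries and 79174627 and 33680632 in the M9 libraries. Slamf6-0 cells had medians of 9870 and 12332 UMIs in C6M9 and 9955 and 13168 in M9, against 12618 and 17855.5 in C6M9 and 12376.5 and 18128 in M9 among Slamf6-3+ cells. The tests between the 2 sets below therefore used Slamf6-3+ cells drawn to the same number of cells in each step of total UMIs within each library. The main test had 251, 87, 87 and 17 cells of each set in C6M9 replicates 1 and 2 and M9 replicates 1 and 2. Comparisons that were not tested used all Slamf6-3+ cells and were not matched for depth. These include levels by Slamf6 class, signs of another lineage, beta variable segments, marker sums and Igfbp4 in CD8 cells only. The 17 cells of M9 replicate 2 are few, and 4 of them held no UMI of Cd8a or Cd8b1.

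Slamf6-0 cells made up a larger share of Tcf7+ cells in both C6M9 libraries than in either M9 library. They were 13.2% of Tcf7+ cells in C6M9 replicate 1 (exact binomial 95% interval 11.7 to 14.8%) and 8.40% in C6M9 replicate 2 (6.82 to 10.2%). In M9 they were 2.77% in replicate 1 (2.23 to 3.41%) and 2.05% in replicate 2 (1.20 to 3.27%). The intervals cover counting error only. The means were 10.8 ± 3.39% in C6M9 and 2.41 ± 0.508% in M9 (SD, n = 2 each), a difference of 8.38 percentage points. The groups did not overlap, and the exact two-sided permutation test gave p = 0.333, the smallest that 2 against 2 libraries allow.

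The share fell with depth in every library. In C6M9 replicate 1 it was 23.7% of cells with 5000 to 8000 UMIs and 3.02% of cells with 18000 or more, and in M9 replicate 1 it was 7% and 0.542% of cells at those depths. With each cell thinned to 5000 UMIs and both gene conditions applied again, the share was 29.1% and 30.2% in C6M9 and 11.8% and 12.5% in M9, a difference of 17.5 points. Most of the cells at 0 after thinning held Slamf6 UMIs before it. Slamf6-0 cells made up 216 of 506 and 82 of 295 of them in C6M9, and 80 of 336 and 16 of 95 in M9. At 5000 UMIs, 9.79% and 16.6% of Slamf6-3+ cells in C6M9 and 5.27% and 7.98% in M9 read 0 for Slamf6. Depth-matched Slamf6-3+ cells held 525 and 492 CPM of Slamf6 in C6M9 and 715 and 845 CPM in M9, which was not tested. A count of 0 thus does not show that a cell lacked the transcript, and Slamf6-0 cells can include cells with a low level of it.

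**Figure D1:**
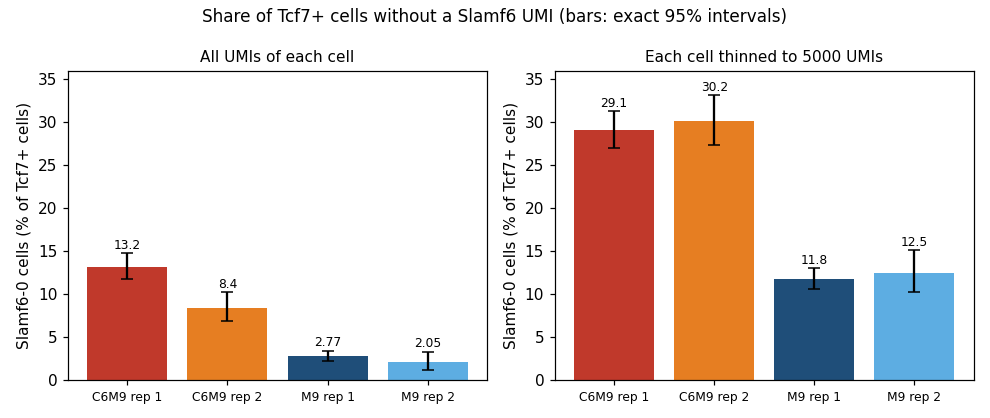
Share of Tcf7+ cells without a Slamf6 UMI in each library (y axis, percent of filtered Tcf7+ cells), with all UMIs on the left and with each cell thinned to 5000 UMIs on the right; bars are single libraries and error bars exact binomial 95% intervals. Both C6M9 libraries stand above both M9 libraries in each panel (13.2 and 8.40% against 2.77 and 2.05%, and 29.1 and 30.2% against 11.8 and 12.5%).

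Tcf7, which the rule used, was lower in Slamf6-0 than in depth-matched Slamf6-3+ cells of 3 libraries and higher in 1. The log2 difference was -0.23 ± 0.094 (SE) and was not tested. The rule asked for a single Tcf7 UMI. In C6M9 replicate 1 the median was 4 UMIs, against 7 in the deeper Slamf6-3+ cells, and 11.2% against 3.08% of cells held exactly 1. The summed Tcf7 level of Slamf6-0 cells was 448 and 430 CPM in the C6M9 libraries and 446 and 634 CPM in the M9 libraries. CPM is the usual unit, a gene's UMIs scaled to a common library total. Cells with 1 Slamf6 UMI, just outside the limit, had 492 and 444 CPM in C6M9 and 543 and 530 CPM in M9, and cells with 6 or more Slamf6 UMIs had 590 and 608 CPM in C6M9 and 510.5 and 567 CPM in M9. Of the filtered cells without Slamf6, 95.1% and 95.8% in C6M9 and 96.7% and 100% in M9 held Tcf7, close to the shares among all filtered cells (97.9%, 98.8%, 98.2% and 99.8%).

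Il7r was not raised in the Slamf6-0 cells of C6M9, and its level in M9 fell along the steps of Slamf6. In C6M9 the Il7r level was 442 and 353 CPM at 0 Slamf6 UMIs and 408 and 360 CPM at 6 or more. In M9 it was 208 and 485 CPM at 0 and 123 and 190 CPM at 6 or more. Ly6c2 was at 622 and 578 CPM at 0 Slamf6 UMIs in C6M9 and 528 and 486 CPM at 6 or more, and in M9 at 362 and 344 CPM at 0 and 130 and 269 CPM at 6 or more. Tox, which encodes a transcription factor of exhausted T cells, went the other way: 68.3 and 97.6 CPM at 0 and 111 and 125 CPM at 6 or more in C6M9, and 136 and 137 CPM at 0 and 234 and 265.5 CPM at 6 or more in M9. These levels describe classes that the rule made and were not tested; cells of the last class were also deeper.

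**Figure D2:**
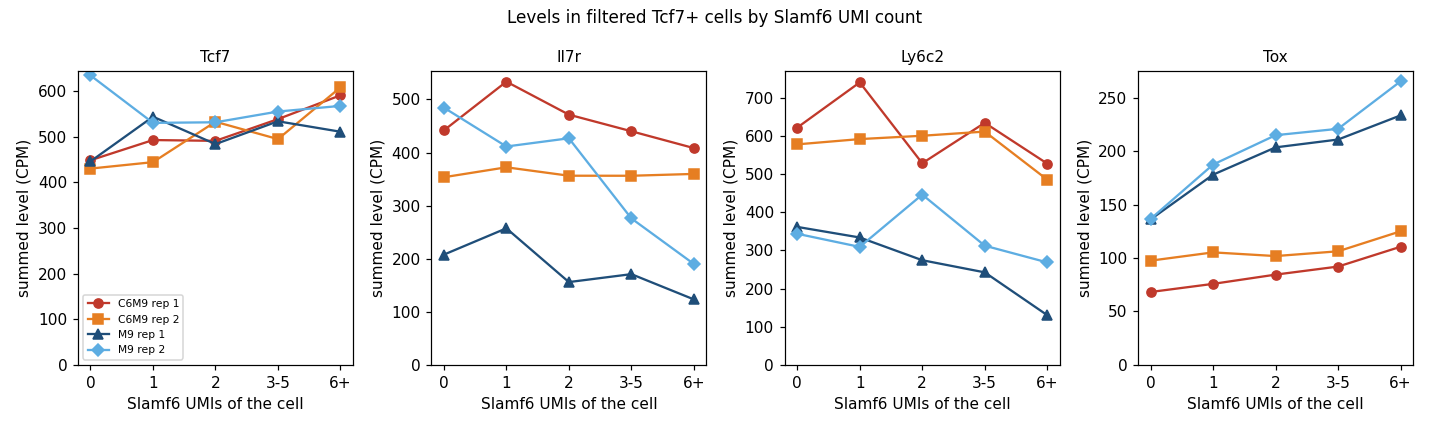
Summed levels (y axis, CPM) of Tcf7, Il7r, Ly6c2 and Tox in filtered Tcf7+ cells by the number of Slamf6 UMIs in the cell (x axis); each line is a library. Il7r ran from 208 and 485 CPM at 0 to 123 and 190 CPM at 6 or more Slamf6 UMIs in M9, and from 442 and 353 to 408 and 360 CPM in C6M9, while Tox was lowest at 0 in all 4 libraries.

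Most Slamf6-0 cells carried the transcripts of CD8 T cells, and a minority did not. No UMI of Cd8a or Cd8b1 was found in 23 of 446 Slamf6-0 cells (5.16%), against 3 of 5315 Slamf6-3+ cells (0.0564%). A Cd4 UMI was present in 4.04% of Slamf6-0 and 1.84% of Slamf6-3+ cells, and a UMI of the MHC class II genes H2-Aa, H2-Ab1 or H2-Eb1 in 1.35% and 2.52%. At least 1 of these 3 signs applied to 33 Slamf6-0 cells (7.40%) and 229 Slamf6-3+ cells (4.31%), and in M9 replicate 2 to 4 of 17 Slamf6-0 cells. Trbv13-3, the beta chain segment of the P14 receptor, took 91.4% and 93.2% of beta variable segment UMIs in the Slamf6-0 cells of C6M9 and 89.7% and 66.7% in M9. In Slamf6-3+ cells it took 94.5% and 94.6% in C6M9 and 92.3% and 93.3% in M9. The 66.7% rested on 18 UMIs. After these values had been seen, each comparison was repeated on cells with a CD8 UMI and none of Cd4 or MHC class II, called CD8 cells only below, which kept 413 Slamf6-0 and 5086 Slamf6-3+ cells.

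Markers of NK and innate lymphoid cells were sparse in both sets, and the summed levels of the B cell list and some others were not. Such a sum can rest on 1 or 2 genes, and which cells held them was not tested. The Slamf6-3+ sums of this paragraph come from all cells of that set, not matched for depth. The 9 markers of NK and innate lymphoid cells summed to between 0 and 6.3 CPM in Slamf6-0 cells over the 4 libraries and between 2.3 and 4.9 CPM in Slamf6-3+ cells, and Ncr1 was at 0 in the Slamf6-0 cells of C6M9 replicate 1. The 13 B cell markers, which include transcripts that free RNA can bring, summed to between 293 and 523 CPM in Slamf6-0 cells and between 375 and 416 CPM in Slamf6-3+ cells. The 7 CD4 and regulatory T cell markers summed to between 42.4 and 169 CPM in Slamf6-0 cells and between 56.4 and 219 CPM in Slamf6-3+ cells. The 14 myeloid and dendritic cell markers summed to between 65.6 and 115 CPM in Slamf6-0 cells and between 77.8 and 93.6 CPM in Slamf6-3+ cells. In the scaled levels of the tests below, Slamf6-0 cells held 242 and 265 CPM of Ighm in C6M9 and 184 and 241 CPM in M9. Cst3, of the myeloid list, was at 74.5 and 63.2 CPM in C6M9 and 92.6 and 70.8 CPM in M9. Of the CD4 and regulatory T cell list, 2 genes were tested, Izumo1r and Ctla4, which are also in the progenitor exhausted and inhibitory receptor lists. In M9 replicate 1 they were at 91.5 and 50.7 CPM in Slamf6-0 cells. Red cell and platelet markers were at 0 in all Slamf6-0 sums. Of 7 gamma delta and innate-like T cell markers, 1 was tested, Trdc. Its level in Slamf6-0 cells was 454 and 434 CPM in C6M9 and 387 and 395 CPM in M9. In the depth-matched comparison below it was called lower in Slamf6-0 cells (log2 -0.36).

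In the depth-matched comparison of Slamf6-0 with Slamf6-3+ cells, 242 genes were higher and 144 lower in Slamf6-0 cells out of 7352 tested (edgeR quasi-likelihood test with the library as a block, two-sided, Benjamini-Hochberg adjusted p under 0.05). That is 3.29% called higher and 1.96% called lower, 5.25% in all. The genes that chose the cells, Slamf6 and Tcf7 among them, were left out of the counts. By list, 8 of 17 progenitor exhausted, 3 of 7 inhibitory receptor and 6 of 18 homing and adhesion genes were lower in Slamf6-0 cells, and 23 of 79 ribosomal protein genes were higher. With CD8 cells only, 351 genes were higher and 235 lower (8.23% called of 7117, 4.93% higher and 3.30% lower), and 322 of the 386 genes called with all cells were called again. Leaving out C6M9 replicate 1 gave 45 calls and leaving out C6M9 replicate 2 gave 93. Leaving out M9 replicate 1 gave 140 and M9 replicate 2 gave 818, and none of the 386 genes took the other sign in those 4 fits. In the same order, 43, 93, 132 and 386 of the 386 genes were called again. The C6M9 libraries alone gave 793 calls and the M9 libraries alone 41.

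The values below are in CPM, each set in the order C6M9 replicate 1, C6M9 replicate 2, M9 replicate 1, M9 replicate 2, and a log2 difference is Slamf6-0 minus Slamf6-3+ with its SE (n = 4 libraries each). Adjusted p-values are edgeR's. Fewer transcripts in a sum can mean fewer cells with the transcript or less in each cell, and these sums cannot tell the difference. With each cell thinned to 5000 UMIs, 29.5, 42.9, 43.7 and 58.8% of Slamf6-0 cells held a Tox UMI. Among all Slamf6-3+ cells it was 36.5, 44.6, 65.0 and 68.0%, nearly the same share in C6M9 replicate 2. These shares were not tested.

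Of 17 genes of progenitor exhausted cells tested (20 listed), 8 fell and none rose, and the median log2 difference was -0.38, against -0.0033 over all genes tested. Tox had 73.0, 101, 138 and 142 CPM in Slamf6-0 cells, against 115, 134, 252 and 485 in Slamf6-3+ cells. It was lower in Slamf6-0 cells of every library, by log2 -0.82 ± 0.14 (adjusted p = 0.001107). The 485 CPM came from 17 drawn cells, and without M9 replicate 2 the Tox difference was -0.65. Myb, which encodes a transcription factor that sustains self-renewing exhausted T cells, had 52.8, 99.997, 151.5 and 77.6 CPM in Slamf6-0 cells, against 174, 137, 283 and 466 in Slamf6-3+ cells. Its log2 difference was -1.25 ± 0.18 (adjusted p = 3.143e-04), again lower in all 4 libraries. The 466 CPM came from the same 17 drawn cells, and without M9 replicate 2 the Myb difference was -1.09. Izumo1r, the folate receptor 4 gene of progenitor exhausted and regulatory T cells, had 13.4, 6.19, 93.9 and 30.2 CPM in Slamf6-0 cells, against 23.6, 29.3, 145 and 220 in Slamf6-3+ cells (log2 -1.13 ± 0.23, adjusted p = 0.004626). The costimulator gene Icos differed by log2 -0.80 ± 0.14 and the Ikaros family gene Ikzf2 by -0.78 ± 0.16. The other 3 that fell were the follicle-homing receptor Cxcr5 (-1.11 ± 0.30), the tetraspanin Cd9 (-0.67 ± 0.14) and the transcription factor Eomes (-0.60 ± 0.16). With CD8 cells only, 7 fell and 1 rose: Eomes was at -0.32 and did not pass (adjusted p = 0.1075), and the interleukin 21 receptor gene Il21r was higher (0.48, adjusted p = 0.02922). Cxcr5 differed by -1.73 without C6M9 replicate 1.

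Of 7 inhibitory receptor genes tested (14 listed), 3 fell and none rose, with a median of -0.51. Cd22, which encodes a sialic acid-binding inhibitory lectin best known from B cells, had 5.45, 0.885, 35.1 and 17.2 CPM in Slamf6-0 cells, against 17.99, 21.5, 62.7 and 87.2 in Slamf6-3+ cells (log2 -1.59 ± 0.30, adjusted p = 0.002534). It was lower in all 4 libraries. Ctla4, whose product competes with CD28 for its ligands, had 14.7, 17.7, 52.0 and 0 CPM in Slamf6-0 cells, against 35.2, 46.5, 68.1 and 34.1 in Slamf6-3+ cells (-1.04 ± 0.23, adjusted p = 0.01037). Lag3, a receptor for MHC class II, differed by -0.51 ± 0.13 (adjusted p = 0.02926). Cd160 was at +0.50 ± 0.15 and did not pass (adjusted p = 0.06371), but it was called higher with CD8 cells only (0.70, adjusted p = 0.00986) and without M9 replicate 2 (0.59, adjusted p = 0.00242). Cd22 differed by -2.29 without M9 replicate 1.

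Of 8 genes of the SLAM family and its adaptors tested (11 listed, Slamf6 not counted), 3 fell and none rose, with a median of -0.32. Sh2d1a, which encodes the adaptor SAP that binds the tail of Ly108, had 194.5, 172, 240 and 203 CPM in Slamf6-0 cells, against 318, 304, 388 and 250.1 in Slamf6-3+ cells. It was lower in every library, by log2 -0.69 ± 0.10 (adjusted p = 3.895e-04). Fyn, the kinase that SAP recruits, differed by -0.56 ± 0.10 (adjusted p = 0.001666). Cd84, a neighbour of Slamf6 in the SLAM family, differed by -0.62 ± 0.12 (adjusted p = 0.002937). Slamf7 was at -0.61 ± 0.19 and did not pass (adjusted p = 0.06494).

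Of 18 adhesion and homing genes tested (24 listed), 6 fell and 1 rose, with a median of -0.33. Itga4, the alpha 4 integrin chain that binds VCAM1, had 119, 92.9, 142.5 and 134 CPM in Slamf6-0 cells, against 298, 326.5, 252 and 527 in Slamf6-3+ cells. The 2 sets did not overlap, and the log2 difference was -1.41 ± 0.14 (adjusted p = 2.827e-06), called in each of the 17 alternatives. Its partner chain Itgb1 differed by -0.74 ± 0.10 (adjusted p = 3.133e-04). Gpr183, an oxysterol receptor that guides cells within lymphoid tissue, differed by -0.71 ± 0.13. The gene of this list that rose was Cxcr6, the receptor for CXCL16 on tissue-homing T cells. It had 55.3, 46.9, 74.6 and 60.4 CPM in Slamf6-0 cells, against 21.2, 21.5, 6.49 and 3.79 in Slamf6-3+ cells (log2 1.75 ± 0.25, adjusted p = 3.143e-04). No Slamf6-0 library was as low as any Slamf6-3+ library. The Cxcr6 difference was 1.13 with CD8 cells only (adjusted p = 0.002735), 1.302 in the C6M9 libraries alone and 3.57 in the M9 libraries alone.

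Among 25 effector and killer lectin genes tested (34 listed), 4 rose and 3 fell, and the median of -0.0033 matched that of all genes. Gzmk, a granzyme of memory and pre-dysfunctional cells that the rule did not use, fell furthest of all named genes. It had 1.26, 0.885, 7.92 and 0 CPM in Slamf6-0 cells, against 16.0, 19.0, 37.8 and 45.5 in Slamf6-3+ cells (log2 -3.20 ± 0.40, adjusted p = 1.172e-04). The sets did not overlap. The other members that fell were the integrin genes Itga4 and Itgb1. S100a4, a calcium-binding protein of memory and effector T cells, had 452, 238, 296 and 806 CPM in Slamf6-0 cells, against 226, 87.0, 95.1 and 7.58 in Slamf6-3+ cells (log2 1.67 ± 0.26, adjusted p = 6.299e-04). S100a6, its neighbour on chromosome 3, had 632, 385, 607 and 1151 CPM in Slamf6-0 cells, against 513, 202, 131 and 75.8 in Slamf6-3+ cells (1.42 ± 0.27, adjusted p = 0.002817). Both were higher in Slamf6-0 cells of every library in this draw. Over all cells, not matched for depth, the C6M9 libraries held 591 and 357 CPM of S100a6 in Slamf6-0 cells. Their Slamf6-3+ cells held 632 and 489 CPM. The M9 libraries held 600 and 1106 CPM in Slamf6-0 and 199 and 238 CPM in Slamf6-3+ cells. Without C6M9 replicate 1 the S100a6 difference was 2.06, and without M9 replicate 1 that of Gzmk was -4.02. Lgals1, the galectin 1 gene, differed by 0.82 ± 0.20 (adjusted p = 0.01705), but by 0.40 with CD8 cells only (adjusted p = 0.07518).

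The list of naive and central memory genes had 24 tested of 25, of which 1 rose and 2 fell, with a median of 0.073. Gpr183, described above, was among those that fell. The gene that rose was Igfbp4, which encodes an insulin-like growth factor binding protein and is high in naive T cells. It had 23.1, 24.8, 24.9 and 73.3 CPM in Slamf6-0 cells, against 0.400, 0.861, 1.08 and 0 in Slamf6-3+ cells (log2 5.20 ± 0.46, adjusted p = 1.125e-06). All Slamf6-3+ cells, not matched for depth, held 2.25, 3.24, 0.104 and 0.133 CPM. Igfbp4 UMIs were found in 21 of the 33 Slamf6-0 cells with a sign of another lineage and in 28 of the other 413 (6.78%), against 59 of 5086 Slamf6-3+ cells (1.16%) with CD8 cells only. The 33 cells held 69 of the 125 Igfbp4 UMIs of Slamf6-0 cells, including all 17 of M9 replicate 2. They were picked in part for a Cd4 UMI, and their part in the Igfbp4 difference beyond these counts was not tested. With CD8 cells only, Igfbp4 was below the limit for testing, and its level was 14.1, 14.2, 5.99 and 0 CPM in Slamf6-0 cells and 2.31, 2.83, 0.111 and 0.0705 CPM in Slamf6-3+ cells.

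Of 79 ribosomal protein genes tested (82 listed), 23 rose and none fell, 78 had a positive difference, and the median was 0.19. Rps2 had 3353, 3462, 2797 and 3152 CPM in Slamf6-0 cells, against 2517, 2776, 2106 and 2077 in Slamf6-3+ cells (log2 0.43 ± 0.072, adjusted p = 9.098e-04). Rpl14 differed by 0.44 ± 0.076, Rpl36a by 0.38 ± 0.077 and Rpl12 by 0.33 ± 0.069, and each was higher in all 4 libraries. Gpatch4, a nucleolar protein gene, had 44.4, 66.4, 54.3 and 60.4 CPM in Slamf6-0 cells, against 19.2, 19.0, 16.2 and 37.9 in Slamf6-3+ cells (1.42 ± 0.19, adjusted p = 1.996e-04). Prmt3, a methyltransferase that acts on ribosomal protein S2, had 29.3, 38.1, 49.8 and 17.2 CPM in Slamf6-0 cells, against 15.6, 14.6, 14.1 and 7.58 in Slamf6-3+ cells (1.26 ± 0.23, adjusted p = 0.001714). Both rose in all 4 libraries and with CD8 cells only (1.40 and 0.81).

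A few related genes were singled out after their values had been seen. Srm, the spermidine synthase gene, had 51.6, 78.8, 46.4 and 21.6 CPM in Slamf6-0 cells, against 13.6, 13.8, 6.49 and 37.9 in Slamf6-3+ cells (log2 2.00 ± 0.27, adjusted p = 1.766e-04). Mrto4, a ribosome assembly factor, differed by 1.41 ± 0.19 (adjusted p = 1.766e-04), and Nop58, a core protein of the particles that methylate ribosomal RNA, by 1.15 ± 0.18 (adjusted p = 4.988e-04). All 3 were higher in Slamf6-0 cells of C6M9 replicates 1 and 2 and M9 replicate 1 and lower in the 17 cells of M9 replicate 2. Myc, a driver of ribosome production and cell growth, had 36.1, 48.7, 17.0 and 38.8 CPM in Slamf6-0 cells, against 11.996, 31.0, 11.9 and 30.3 in Slamf6-3+ cells (0.98 ± 0.23, adjusted p = 0.01447). Of 14 glycolysis genes tested (19 listed), 2 rose and none fell, with a median of 0.26: lactate dehydrogenase A (Ldha, 0.52 ± 0.10, adjusted p = 0.003992) and triose phosphate isomerase (Tpi1, 0.85 ± 0.17, adjusted p = 0.005278). Of 13 genes of the mitochondrial genome tested, none was called in either direction by edgeR. The mitochondrial share of UMIs had medians of 4.21% and 4.45% in C6M9 and 3.95% and 4.70% in M9 among Slamf6-0 cells, against 4.19% and 4.40% in C6M9 and 4.35% and 4.51% in M9 among Slamf6-3+ cells.

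Of 24 genes induced by the T cell receptor (TCR) tested (30 listed), 4 rose and 2 fell, with a median of 0.28. With CD8 cells only, 7 rose and 1 fell, and neither gene that fell with all cells was called. Tnfrsf9, the costimulatory receptor 4-1BB, had 37.7, 61.1, 142.5 and 0 CPM in Slamf6-0 cells, against 7.997, 9.48, 46.5 and 49.3 in Slamf6-3+ cells (log2 1.75 ± 0.31, adjusted p = 0.00148). It was higher in Slamf6-0 cells of 3 libraries and listed at 0 in the 17 cells of the fourth. Irf8 had 33.96, 38.1, 45.2 and 17.2 CPM in Slamf6-0 cells, against 16.4, 10.3, 11.9 and 3.79 in Slamf6-3+ cells (1.47 ± 0.23, adjusted p = 6.66e-04), and was higher in all 4. Irf4, another interferon regulatory factor gene that follows TCR strength, had 14.7, 7.96, 11.3 and 0 CPM in Slamf6-0 cells, against 18.4, 26.7, 50.8 and 68.2 in Slamf6-3+ cells (-1.38 ± 0.33, adjusted p = 0.01712). Irf4 differed by -0.53 with CD8 cells only and did not pass (adjusted p = 0.4453), and by -2.27 without C6M9 replicate 1. Of the nuclear receptor genes, Nr4a1 differed by 1.17 ± 0.29 (adjusted p = 0.02115) and by 1.88 with CD8 cells only (adjusted p = 0.005475). Nr4a2 differed by -0.88 ± 0.25 (adjusted p = 0.04638) and by -0.36 with CD8 cells only, where it did not pass (adjusted p = 0.4483). Of 17 immediate early and dissociation stress genes tested, Nr4a1 alone was called.

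The remaining named genes were mixed in kind. Higher in Slamf6-0 cells of all 4 libraries were Timm8a1, a mitochondrial import chaperone (log2 1.56 ± 0.23, adjusted p = 3.895e-04), Fabp5, a fatty acid binding protein (1.60 ± 0.29), Sytl2, a granule docking protein (1.36 ± 0.37), and the cytokine gene Tnf (1.28 ± 0.34). Fabp5 and Tnf did not pass with CD8 cells only (0.88 and 0.94), nor did Fabp5 without C6M9 replicate 1 (0.97). Cd74, the invariant chain of MHC class II, had 98.9, 8.85, 47.5 and 17.2 CPM in Slamf6-0 cells, against 23.99, 7.75, 41.1 and 15.2 in Slamf6-3+ cells (1.31 ± 0.26, adjusted p = 0.003818). Its difference was -0.48 with CD8 cells only (adjusted p = 0.2221). Of the 236 Cd74 UMIs in Slamf6-0 cells of C6M9 replicate 1, 206 lay in 1 cell with a sign of another lineage, and without that library the Cd74 difference was 0.20 and not called. Lower in all 4 libraries were Ctla2a, a protease inhibitor gene first found in activated T cells (-1.33 ± 0.15, adjusted p = 1.742e-05), Il10ra, the interleukin 10 receptor chain (-1.24 ± 0.22), the lectin gene Klrb1f (-1.36 ± 0.34), Ifngas1, a long noncoding RNA next to Ifng (-1.47 ± 0.31), and Gm14085 (-1.29 ± 0.20) and Gm17745 (-1.13 ± 0.21). Klrb1f did not pass with CD8 cells only (-1.10, adjusted p = 0.07784), and Ifngas1 differed by -2.46 without C6M9 replicate 1.

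**Figure D3:**
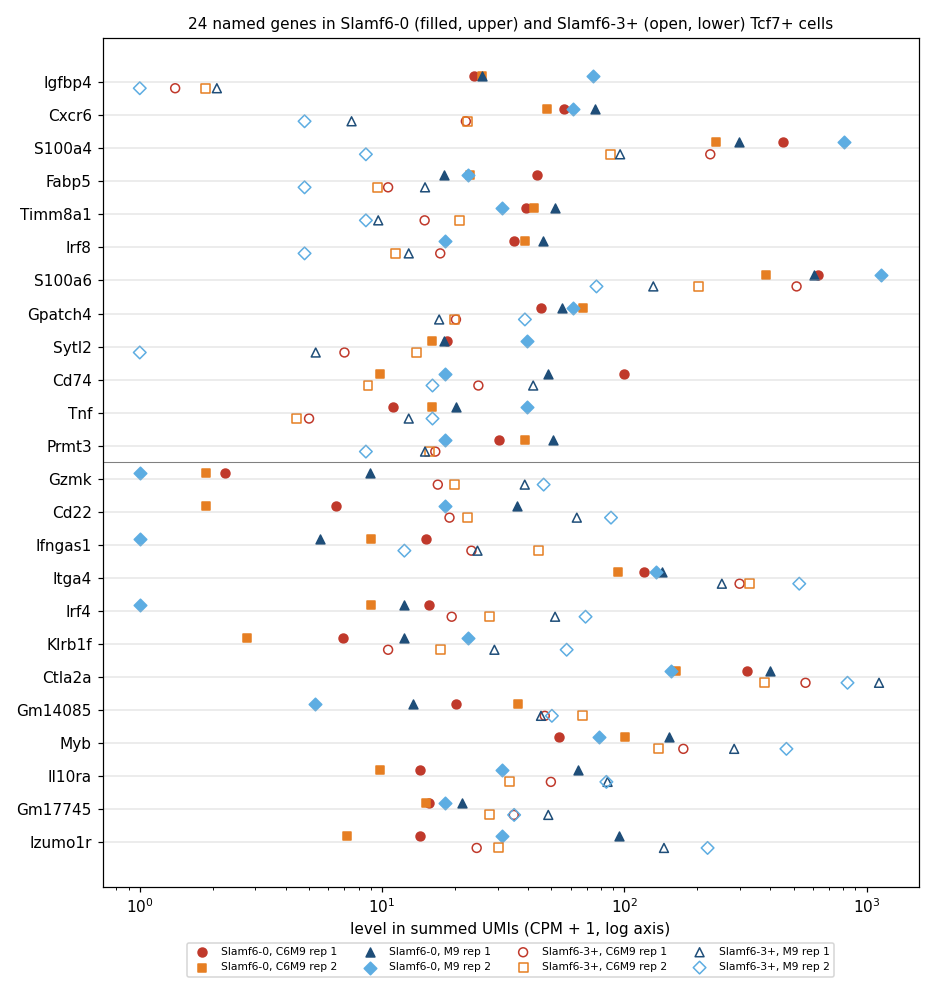
Levels of the 24 genes with the greatest differences among those called in one direction in all 4 libraries (x axis, CPM + 1, log axis); filled markers in the upper line of each gene are Slamf6-0 cells, open markers in the lower line depth-matched Slamf6-3+ cells, and marker shapes are libraries. Gzmk had 0 to 7.92 CPM in Slamf6-0 cells, against 16.0 to 45.5 CPM in Slamf6-3+ cells, and Igfbp4 23.1 to 73.3 CPM against 0 to 1.08 CPM. Of the 125 Igfbp4 UMIs in all 446 Slamf6-0 cells, 69 lay in 33 cells with a sign of another lineage.

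Other lists held few calls. Of 14 T cell identity genes tested, Thy1 rose (log2 0.69 ± 0.17), Cd28 fell (-0.64 ± 0.10) and so did Trbc1 (-0.30 ± 0.082), with a median of -0.092. Trbc1 took the other sign with CD8 cells only (0.059, adjusted p = 0.8196). Of 31 T cell transcription factor genes tested, 1 rose and 6 fell, with a median of -0.063; Ikzf3 (-0.60 ± 0.13) was the one not named above. Of 33 interferon stimulated genes tested, Ifi209 (-0.52 ± 0.14) and Ifi213 (-0.53 ± 0.13) fell and none rose, and 6 had a positive difference, with a median of -0.26. Of 25 cytokine receptor genes Il10ra alone was called, and of 12 BCL2 family genes none was, in either direction. Of 15 S and G2M phase genes, which the rule held low through Mki67, Top2a and Ccnb2, Stmn1 rose (1.00 ± 0.27) and Hmgb2 fell (-0.41 ± 0.11). Stmn1 did not pass with CD8 cells only (0.25). Of the variable segments of the P14 receptor, Trav14-1 fell (-0.52 ± 0.14) and Trbv13-3 was at -0.50 ± 0.15 (adjusted p = 0.05333).

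Whether the contrast between Slamf6-0 and Slamf6-3+ cells depended on the group was tested as a difference of differences, the contrast in C6M9 minus that in M9. Of 7352 genes, 18 were called (0.245%), 1 with a greater (0.0136%) and 17 with a lower value in C6M9 (0.231%). S100a6, whose levels are given above, had the smallest p, at log2 -2.16 ± 0.24 (adjusted p = 1.746e-08). Leaving out M9 replicate 1 gave -3.38, and leaving out M9 replicate 2 gave -1.68. It had, with CD8 cells only, 638 and 311 CPM in Slamf6-0 cells of C6M9 and 602 and 1347 in those of M9, against 534 and 380 in Slamf6-3+ cells of C6M9 and 149 and 160 in those of M9. Slamf6-0 cells thus stood well above Slamf6-3+ cells in both M9 libraries and near them in C6M9 (-2.33, adjusted p = 1.105e-06 with CD8 cells only). Lgals1 had 828 and 573 CPM in Slamf6-0 cells of C6M9 and 1160 and 1199 in those of M9, against 804 and 473 in Slamf6-3+ cells of C6M9 and 453 and 261.5 in those of M9 (-1.49 ± 0.18). It was called in all 11 alternatives.

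Xcl1, the chemokine gene whose product attracts cross-presenting dendritic cells, ran the other way. It had 178 and 62.8 CPM in Slamf6-0 cells of C6M9 and 91.6 and 4.31 in those of M9, against 41.6 and 15.5 in Slamf6-3+ cells of C6M9 and 109 and 87.2 in those of M9. Slamf6-0 cells were higher in both C6M9 libraries and lower in both M9 libraries, a difference of differences of 2.68 ± 0.35, and 3.59 with CD8 cells only (adjusted p = 2.36e-08). Leaving out M9 replicate 1 gave 6.41, where 4.31 CPM in 17 cells stand for the Slamf6-0 cells of M9, and leaving out M9 replicate 2 gave 2.36. In the M9 libraries alone Xcl1 differed by -0.85 between the sets and was not called (adjusted p = 0.3682). Crip1, a LIM domain protein gene, was at -1.17 ± 0.18, and -1.13 with CD8 cells only (adjusted p = 0.001877). Plac8 (-2.56 ± 0.29) and AY036118 (-1.25 ± 0.18) did not pass with CD8 cells only (adjusted p = 0.5299 and 0.1224), nor did Plac8 without M9 replicate 1 (-1.34). AY036118 and another called locus, Gm42418, overlap ribosomal RNA sequence, so their reads are uncertain.

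Il7r and Ly6c2 were among the 18, and their calls depended on the cells used. Il7r had 472 and 372 CPM in Slamf6-0 cells of C6M9 and 210 and 505 in those of M9, against 525 and 475 in Slamf6-3+ cells of C6M9 and 133 and 87.2 in those of M9, a difference of differences of -1.50 ± 0.25. Ly6c2 had 665 and 624 CPM in Slamf6-0 cells of C6M9 and 366 and 358 in those of M9, against 652 and 670 in Slamf6-3+ cells of C6M9 and 161 and 193 in those of M9 (-1.12 ± 0.20). With CD8 cells only the values were -0.39 for Il7r and -0.12 for Ly6c2 (adjusted p = 0.9807 for both), and with another draw of the matched cells -0.59 and -0.36, neither called. On leaving out each library Il7r was called every time, from -2.74 without M9 replicate 1 to -0.87 without M9 replicate 2. Ly6c2 was called without either M9 library (-0.89 and -1.19) and not without either C6M9 library (-1.17 and -1.03). The drawn set of M9 replicate 2 held 17 cells with 87.2 CPM of Il7r, while all 752 Slamf6-3+ cells of that library held 191 CPM.

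The number of genes whose contrast depended on the group was 6 with CD8 cells only: S100a6, Lgals1, Xcl1, Crip1, Gm42418 and Vim, the vimentin gene. These are 0.0843% of genes tested, Xcl1 higher (0.0141%) and the rest lower (0.0703%). Leaving out C6M9 replicate 1 gave 12 and C6M9 replicate 2 gave 9, while leaving out M9 replicate 1 gave 164 and M9 replicate 2 gave 28. Another draw of the matched cells gave 9.

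**Figure D4:**
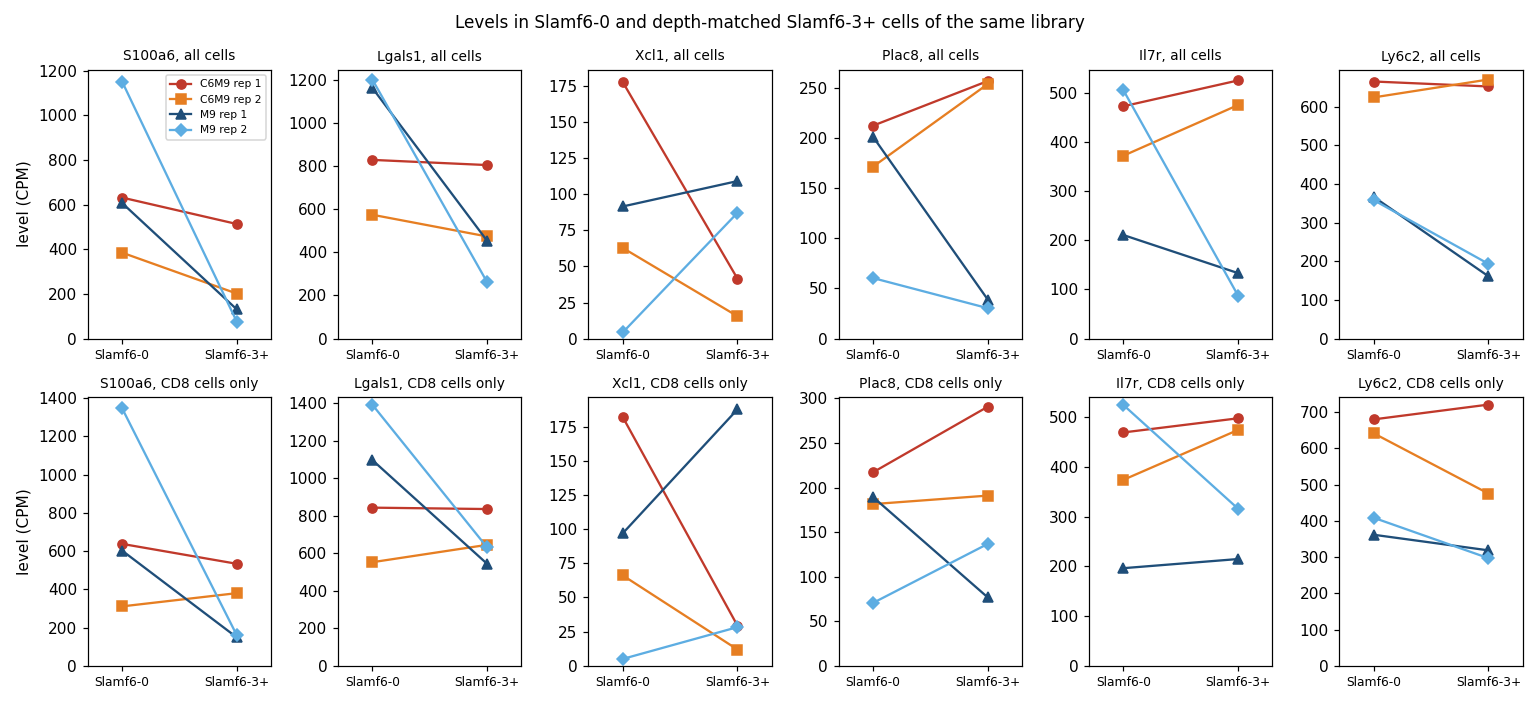
Levels (y axis, CPM) of S100a6, Lgals1, Xcl1, Plac8, Il7r and Ly6c2 in Slamf6-0 cells (left) and depth-matched Slamf6-3+ cells (right); each line joins the 2 sets of a library, with all cells in the upper row and CD8 cells only in the lower row. The M9 lines of S100a6 fall from left to right in both rows and the C6M9 lines stay closer to level, while the steep M9 lines of Il7r and Ly6c2 in the upper row flatten in the lower row.

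Within Slamf6-0 cells, C6M9 differed from M9 at few genes. Of 7433 genes tested, none was higher and 2 were lower in C6M9 (0.0269% called; edgeR quasi-likelihood test, adjusted p under 0.05), 357 had an unadjusted p under 0.05, and DESeq2 called 1. Izumo1r had 13.1 and 6.74 CPM in C6M9 libraries, against 91.5 and 29.1 CPM in M9 libraries. The groups did not overlap, and the log2 difference, C6M9 minus M9, was -2.75 ± 0.40 (adjusted p = 0.01997, n = 2 each). Lag3 had 54.9 and 37.9 CPM in C6M9 libraries, against 189 and 112 CPM in M9 libraries, also without overlap (-1.76 ± 0.26, adjusted p = 0.01997). In Slamf6-3+ cells, which were more numerous, Izumo1r had 21.5 and 22.6 CPM in C6M9 against 129 and 114 CPM in M9, and Lag3 92.5 and 94.0 CPM in C6M9 against 219 and 207 CPM in M9. There 349 genes were higher and 513 lower in C6M9 of 11731 tested (7.35% called, 2.98% higher and 4.37% lower), from 5315 cells in place of 446.

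Other genes of the lists did not pass between the groups. Il10ra had 13.1 and 8.42 CPM in C6M9 Slamf6-0 cells, against 61.7 and 29.1 CPM in M9 (log2 -2.19 ± 0.37, adjusted p = 0.0589). Pdcd1, which encodes PD-1, had 11.9 and 8.42 CPM in C6M9, against 30.9 and 33.3 CPM in M9 (-1.56 ± 0.38, adjusted p = 0.358). Both sat without overlap but below the threshold. Cd22 differed by -2.93 ± 0.57 (adjusted p = 0.1893), Tox by -0.69 ± 0.23 (adjusted p = 0.8755) and the TCR-induced gene Egr2 by -2.80 ± 0.71 (adjusted p = 0.3881). Leaving out C6M9 replicate 1 gave -4.84 for Cd22 and -3.63 for Egr2, and leaving out M9 replicate 1 gave -2.07 and -4.13. Without M9 replicate 2 the Egr2 difference was -1.34. Egr2 had 7.78 and 4.21 CPM in C6M9, against 16.5 and 121 CPM in M9, the last from the 17 cells of M9 replicate 2. Ly6c2 had 649.5 and 594 CPM in C6M9, against 357 and 345.5 CPM in M9 (0.82 ± 0.16), and Il7r 461 and 363 CPM in C6M9, against 205 and 487 CPM in M9 (0.38 ± 0.28). The Il7r values of the M9 libraries spanned those of C6M9, and without M9 replicate 2 the Il7r difference was 1.015 and called. Medians were -0.95 over 8 inhibitory receptor genes tested, -0.55 over 17 progenitor exhausted genes and -0.51 over 24 TCR-induced genes, against -0.0041 over all genes tested. They were 0.23 over 24 naive and central memory genes and 0.17 over 79 ribosomal protein genes. In Slamf6-0 cells these lists held no call other than Izumo1r and Lag3. The medians had the same directions in Slamf6-3+ cells. There they were -0.66 for inhibitory receptor, -0.92 for progenitor exhausted and -0.88 for TCR-induced genes, and 0.38 for naive and central memory and 0.19 for ribosomal protein genes.

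Both calls between the groups were lost without M9 replicate 1 (Izumo1r -1.37, adjusted p = 0.4949; Lag3 -1.16, not called), which leaves the 17 cells of M9 replicate 2 to stand for M9, and with CD8 cells only (-2.92 and -1.78, adjusted p = 0.1202 and 0.07188). Leaving out C6M9 replicate 1 gave 13 calls and C6M9 replicate 2 gave 19, and leaving out M9 replicate 1 gave 19 and M9 replicate 2 gave 27, where a lone library is taken to vary as the other group does.

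**Figure D5:**
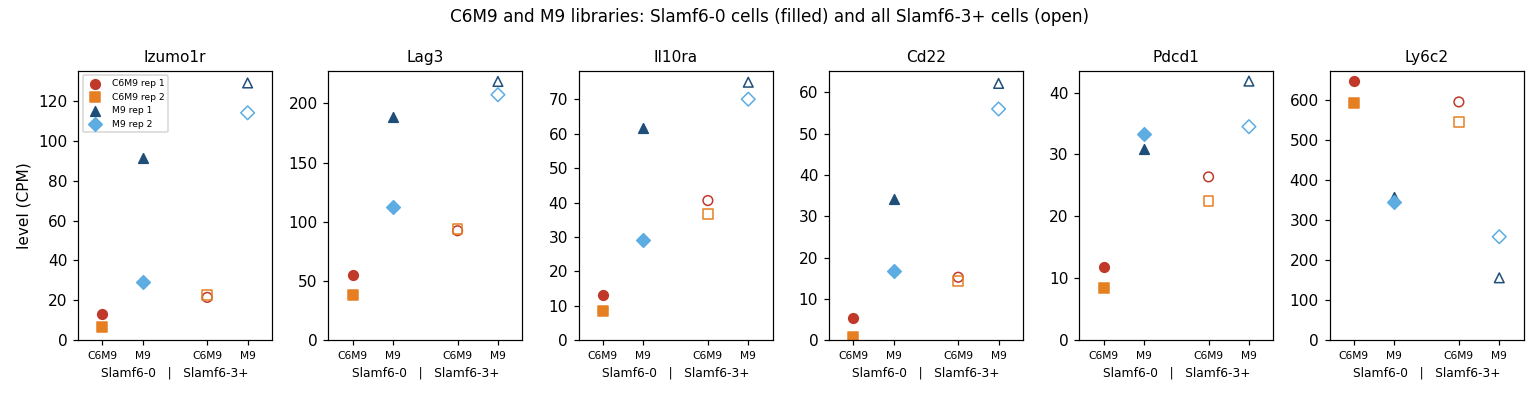
Levels (y axis, CPM) of Izumo1r, Lag3, Il10ra, Cd22, Pdcd1 and Ly6c2 by group (x axis), each marker a library; filled markers on the left of each panel are Slamf6-0 cells and open markers on the right all Slamf6-3+ cells. Among Slamf6-0 cells Lag3 sits at 54.9 and 37.9 CPM in C6M9, against 189 and 112 CPM in M9, and Ly6c2 at 649.5 and 594 CPM in C6M9, against 357 and 345.5 CPM in M9.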

How the data were processed

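Each of the 4 libraries has a deposited matrix of whole UMI counts, genes by barcodes, made by the authors with Cell Ranger 6.0.0 on mm10, per the submitters' processing notes; no annotation release is given in the sources used here. Barcodes kept as cells alone are listed, so free RNA could not be measured; it can add UMIs of genes that a cell does not express. Libraries shared at most 4 barcodes in any pair. Scrublet in Scanpy 1.11.5 scored doublets (277 in all, of which 1 was a Slamf6-0 cell); they were kept in the main comparison. Slamf6-3+ cells were drawn (seed 1) to match the Slamf6-0 cells in steps of 0.25 log2 total UMIs within each library. Counts were summed per library and cell set and tested in edgeR 4.0.16 (R 4.3.3) by its two-sided quasi-likelihood test after filterByExpr and TMM scaling, with Benjamini-Hochberg adjustment over all genes tested. Levels are TMM-scaled CPM of the sums, with some exceptions. Levels by Slamf6 class, those of marker lists and those of Igfbp4 in CD8 cells only are CPM of the sums without TMM. So are those of S100a6 and Igfbp4 over all cells without matching. Shares were compared by an exact permutation test over libraries. Alternatives were DESeq2 1.42.0, other scaling, filters, draws, depths and limits, and leaving out each library. Genes named between Slamf6-0 and Slamf6-3+ cells were called, had a mean of at least 20 CPM in either set and the same direction in 4 libraries (the 12 greatest differences each way). Between groups they were called without overlap, for the difference of differences they had the 6 smallest p, and in each list up to 4 had the smallest p. Other called genes of a list, and those marked in the text, were named after their values were seen. Members and the 26 gene lists were chosen with earlier results of these data known. The coordinates are from GENCODE (GRCm38). Intervals cover counting error only. On simulated counts with 100 genes changed by each fold, the test recovered 84% at 2-fold and 100% at 4-fold for Slamf6-0 against Slamf6-3+ cells (7355 genes), 42% and 91% for C6M9 against M9 within Slamf6-0 cells (7435 genes), and 21% and 74% for the difference of differences (7355 genes). A called gene of the lists is not reported here by name.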

Additional observations from a re-analysis of the deposited data

Results flagged for a closer look

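The contrast between Slamf6-0 and Slamf6-3+ cells differed between the C6M9 and M9 groups at 18 genes by the test of that difference itself (edgeR quasi-likelihood test, adjusted p under 0.05). As log2 differences of differences, C6M9 minus M9, Xcl1 was at 2.68 and the other 17 were negative. The proteins of S100a6 (-2.16) and Anxa2 (-1.19) bind each other, Lgals1 (-1.49) and Lgals3 (-3.58) encode galectins, and Vim (-1.21) encodes vimentin. Surface proteins and receptors were Il7r (-1.50), Il18r1 (-1.69), Ly6c2 (-1.12), Ly6a (-1.82) and Klrk1 (-1.21). The serpin genes were Serpina3g (-2.17) and Serpinb6a (-1.74). The rest were Plac8 (-2.56), Crip1 (-1.17), Ifi27l2a (-0.82), AY036118 (-1.25) and Gm42418 (-0.67). With CD8 cells only, Crip1, Gm42418, Lgals1, S100a6, Vim and Xcl1 passed again. No group had the 4 or more libraries that a test for a single outlying library needs.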

How the results depend on the processing

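The number of genes called between Slamf6-0 and Slamf6-3+ cells (386) was 75 with DESeq2, 194 with cells thinned to 5000 UMIs, 228 with at least 2 Tcf7 UMIs, 703 with at least 5 Slamf6 UMIs and 586 with CD8 cells only. The libraries of C6M9 alone gave 793 and those of M9 alone 41, and leaving out each library gave 45 to 818. Without the replicate block for the library the count was 57. Between groups within Slamf6-0 cells (2), it was 1 with DESeq2, 37 without a filter on low counts, 0 with at least 2 Tcf7 UMIs, 0 with CD8 cells only and 13 to 27 on leaving out each library. Deviations of like-numbered libraries correlated at -0.093. With 17 cells in M9 replicate 2, that value cannot show whether like-numbered libraries shared a batch, and the labels do not say. With the replicate number as a replicate block, the count between groups was 0. For the difference of differences (18), it was 2 with DESeq2, 9 with a second draw of matched cells, 6 with CD8 cells only and 9 to 164 on leaving out each library. The share of Slamf6-0 cells differed by 8.38 points, and by 5.99 to 10.8 points on leaving out each library. The share of Tcf7+ cells at 0 for Slamf6 differed by 17.5 points at 5000 UMIs per cell, where most such cells held Slamf6 before thinning. Direction turned for Cd74 (-0.48) and Trbc1 (0.059) with CD8 cells only, and for Gm42418 (0.31) with the second draw. Over the genes named and their alternatives, 1150 kept direction and call, 352 lost the call, 53 gained one, 3 turned direction with a call and 20 moved without a call to compare. The CD8-only fits and the fits on the libraries of 1 group were chosen after seeing the data. The cause of these shifts was not tested. Low depth and 17 cells in M9 replicate 2 limit what these sums can resolve.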
